A study of Homo sapiens with 16 samples.

Results

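The question addressed here was which genes respond differently to 48 h of 5-fluorouracil (5-FU) when ATF4 is knocked down. The data are messenger RNA counts from SW620, an established human colorectal cancer cell line, carrying either a scrambled control short hairpin RNA (shSc) or a short hairpin RNA against ATF4 (shATF4). Each line was sequenced without drug (3 libraries each) and after 48 h in 5 µM 5-FU (2 libraries each), which makes 10 of the 16 libraries of the series. The other 6, taken at 24 h, entered only the estimate of the spread and are quoted where named. For every gene the response of the scramble line was subtracted from the response of the shATF4 line, both in log2 units. This difference of responses is called the contrast below: a negative value means that the gene ended lower in 5-FU-treated shATF4 cells than the scramble response would give, and a positive value that it ended higher. All 17309 genes that passed a filter on low counts, of 58735 in the table, make up the comparison. Each arm is 1 hairpin line against 1 control line, so an effect of the hairpin other than loss of ATF4 cannot be told apart from loss of ATF4. The treatment tag of the 4 libraries titled 48 h reads 24 h, and the titles were followed. No time is given for the untreated cells, and nothing states whether replicates came from independent cultures. The p-values therefore rest on a spread between libraries that may be purely technical.

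ATF4 is the main transcription factor downstream of the integrated stress response. Kinases that sense amino acid shortage, unfolded protein, double-stranded RNA or haem shortage phosphorylate the initiation factor eIF2, which slows translation in general while ATF4 messenger RNA is translated more. ATF4 then switches on genes for amino acid supply, and together with partners such as CHOP it drives genes of cell death and of feedback on eIF2. 5-FU, a pyrimidine analogue, inhibits thymidylate synthase, and its metabolites enter RNA and DNA.

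The 10 libraries held between 14920653 and 17695194 counts. Scramble untreated replicate 2 stood apart, with 1.42% of its counts on protein-coding genes of the mitochondrial genome against 0.753% and 0.766% in the other untreated scramble libraries, and so did shATF4 replicate 3 at 24 h, which is in no group of the contrast. Of 10 markers of colorectal epithelium, 9 were above 1 CPM (a gene's counts scaled to the size of its library), with LGALS4 below it. Among markers of other cells, COL3A1 (fibroblasts) and MS4A1 (B cells) had no count in any of these libraries. Summed levels of the other marker lists moved with drug and line. The 10 leukocyte markers, mostly LYZ, which secretory epithelium also makes, summed to 3.44 to 4.82 CPM in untreated scramble, 32.8 to 36.8 CPM in treated scramble, 4.15 to 5.51 CPM in untreated shATF4 and 26 to 26.3 CPM in treated shATF4 libraries. The 6 endothelial markers summed to 3.93 to 4.46, 14.3 to 16, 3.86 to 5.40 and 8.18 to 9.07 CPM in the same order, and the 9 fibroblast markers to 35.5 to 44.6, 56.1 to 58.1, 37 to 38.5 and 59.4 to 66.4 CPM. None of the tested markers of these 3 lists had a called contrast, and their part in the results was not tested.

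Both lines answered 5-FU strongly and largely alike, and a small set of genes answered unequally. The edgeR quasi-likelihood test with Benjamini-Hochberg adjustment over all genes called 10501 genes (60.7%) between 48 h and untreated cells in the scramble line and 10097 (58.3%) in the shATF4 line, at an adjusted p under 0.05. Of the 8474 genes called in both lines, 8435 moved in the same direction. These 8435 were 80.3% of the genes called in scramble and 83.5% of those called in shATF4. Across the 17309 genes the responses of the lines correlated with r = 0.861 (genes are not independent replicates). The contrast itself was called for 475 genes (2.74%), of which 225 (1.3%) were positive and 250 (1.44%) negative. Unequal changes of at least 2-fold numbered 127 genes, 28 positive and 99 negative. The contrast over all tested genes had a median of 0.01. In bulk RNA, fewer cells that express a gene and less RNA of it per cell cannot be told apart.

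**Figure D1:**
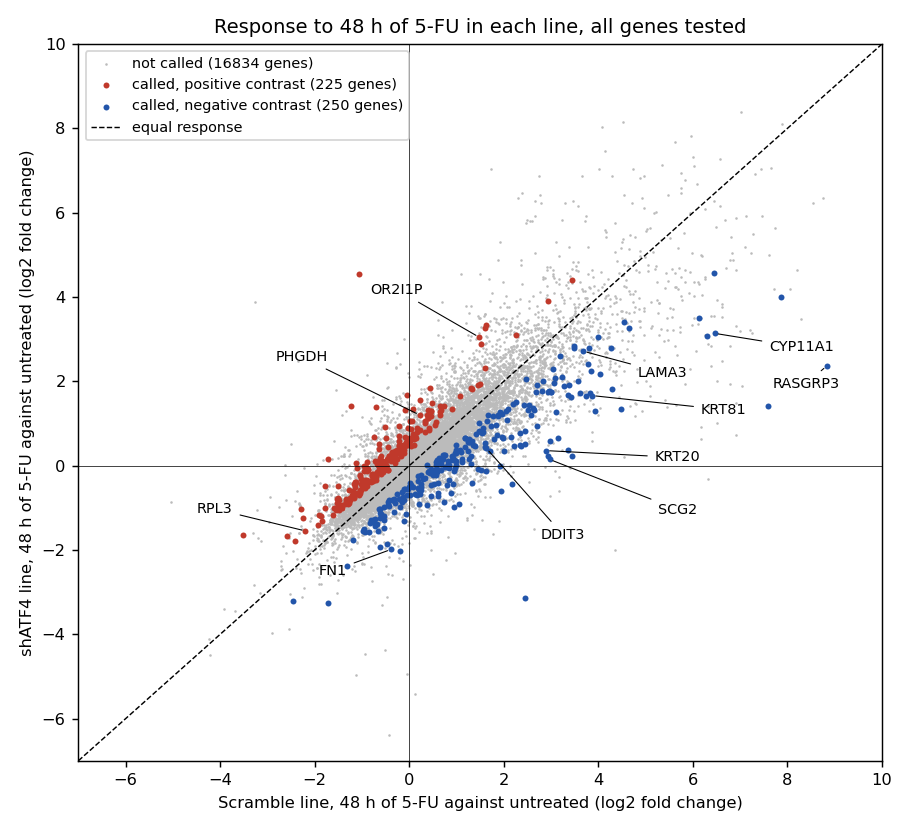
Response to 48 h of 5-FU in the scramble line (horizontal axis) and the shATF4 line (vertical axis), both as log2 fold change against untreated cells, with 1 point per tested gene. Most of the 17309 points lie along the dashed line of equal response, the 225 genes with a positive contrast above it and the 250 with a negative contrast below it.

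The count depends on which libraries are in the fit. Leaving out 1 of the 10 libraries at a time gave between 136 genes (without scramble 48 h replicate 2) and 487. The count was lower than the full value by over 1.5 times without scramble 48 h replicate 1 (173 genes), shATF4 48 h replicate 1 (260) or 2 (178), scramble untreated replicate 1 (267) and shATF4 untreated replicate 2 (265). Without both libraries that stood apart it was 1204, of which 472 were among the 475, and without scramble untreated replicate 2 alone it was 443. A core of 107 genes was called in all 18 alternative fits. Unless a lost call is stated, the genes named below as called belong to this core.

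The negative contrasts were mostly weaker inductions. The 250 genes had a median response of 0.99 in scramble cells and 0.13 in shATF4 cells. Of them, 103 rose in both lines, 59 rose in scramble and were not called in shATF4, 22 rose in scramble and fell in shATF4, 40 fell in both, and 26 fell in shATF4 and were not called in scramble. The 225 positive contrasts were more mixed, with medians of -0.57 in scramble and 0.08 in shATF4. Of them, 74 fell in both lines, 54 fell in scramble and were not called in shATF4, 16 fell in scramble and rose in shATF4, 46 rose in shATF4 and were not called in scramble, and 35 rose in both. Read the other way, 185 of the 250 negative genes (74%) and 155 of the 225 positive genes (68.9%) differed between the lines at 48 h and were not called between the untreated lines. Between the untreated lines 506 genes (2.92%) were called, and between the treated lines 1636 (9.45%). These splits describe the 4 group levels from which the contrast is built and are not further tests of it. Over all genes with an average rise of at least 2-fold across the lines (3330 genes), the median rise was 1.83 in scramble and 1.71 in shATF4. For the 988 genes with an average fall of that size the medians were -1.30 and -1.22.

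ATF4 messenger RNA checked the labels. It stood at 388, 364 and 384 CPM in untreated scramble cells and at 331 and 333 CPM after 48 h of drug, against 172, 169 and 179 CPM untreated and 114 and 118 CPM at 48 h in shATF4 cells. Every shATF4 library was below every scramble library. The knockdown was 2.19-fold without drug and 2.86-fold at 48 h, with a residual transcript in every knockdown library. The contrast for ATF4 itself was -0.39 ± 0.14 (SE, edgeR adjusted p = 0.144). It passed the test with the 10 libraries alone (-0.42, adjusted p = 0.00779) and without both libraries that stood apart (-0.36, adjusted p = 0.0124). Its own level fell by 0.58 with drug in shATF4 cells, whereas the change in scramble cells, -0.19, did not pass the test.

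Among regulators of the stress response, the genes for CHOP and for the eIF2 phosphatase subunit GADD34 were induced less in shATF4 cells. DDIT3, which encodes CHOP, a transcription factor that promotes cell death in prolonged stress, stood at 6.15, 6.47 and 5.29 CPM in untreated scramble cells and reached 18.3 and 18.7 CPM at 48 h. In shATF4 cells it stood at 8.54, 8.02 and 7.37 CPM and reached 9.94 and 11.3 CPM. The treated scramble libraries lay above all others, and treated shATF4 cells were only slightly above their untreated state. The rise was 3.10-fold in scramble and 1.33-fold in shATF4, a contrast of -1.22 ± 0.21 (edgeR adjusted p = 0.00298). PPP1R15A, which encodes GADD34 and so reverses the phosphorylation of eIF2, rose from 34.2, 36.9 and 33.2 CPM to 127 and 135 CPM in scramble cells. In shATF4 cells it rose from 32.6, 30.8 and 33.7 CPM to 76.1 and 79.7 CPM. Untreated levels overlapped between the lines and treated levels did not. Its contrast was -0.65 ± 0.12 (edgeR adjusted p = 0.0039). At 24 h, with the same untreated libraries, the contrast was -0.10 for DDIT3 and 0.19 for PPP1R15A, neither called, and the difference between the times was not tested.

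DDIT3 overlaps MARS and MBD6 in the deposited coordinates (chromosome 12, 57516588 to 57521737, minus strand, GRCh38). Since the strand setting of the counting is not given, shared reads are possible for it. The 250 bases before its RefSeq start are printed here together with those of PPP1R15A, LAMA3, LAMB3 and PHGDH, because these genes carry the stress, adhesion and serine results. They show windows with and without the motifs searched. The sequences are RefSeq's on GRCh38.p14, 5' to 3' on the strand of the gene, at chr12:57520515-57520764 (minus) for DDIT3, chr19:48872171-48872420 (plus) for PPP1R15A, chr18:23872770-23873019 (plus) for LAMA3, chr1:209652426-209652675 (minus) for LAMB3 and chr1:119711684-119711933 (plus) for PHGDH. Capitals mark the AP-1 motif.
DDIT3: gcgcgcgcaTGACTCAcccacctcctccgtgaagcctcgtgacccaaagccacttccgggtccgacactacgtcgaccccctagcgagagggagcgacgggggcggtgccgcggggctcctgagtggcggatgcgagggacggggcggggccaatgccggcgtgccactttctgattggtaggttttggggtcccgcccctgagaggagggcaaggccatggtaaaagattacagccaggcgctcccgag
PPP1R15A: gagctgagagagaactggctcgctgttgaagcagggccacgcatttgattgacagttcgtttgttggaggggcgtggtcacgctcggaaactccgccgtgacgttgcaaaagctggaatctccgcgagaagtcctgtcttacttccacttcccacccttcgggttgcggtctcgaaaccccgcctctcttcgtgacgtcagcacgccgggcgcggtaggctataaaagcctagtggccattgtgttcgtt
LAMA3: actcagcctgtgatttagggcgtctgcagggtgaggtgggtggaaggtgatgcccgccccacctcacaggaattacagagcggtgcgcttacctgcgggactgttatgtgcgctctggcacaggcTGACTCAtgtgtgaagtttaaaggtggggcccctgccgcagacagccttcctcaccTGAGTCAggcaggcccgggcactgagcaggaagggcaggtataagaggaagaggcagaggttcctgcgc
LAMB3: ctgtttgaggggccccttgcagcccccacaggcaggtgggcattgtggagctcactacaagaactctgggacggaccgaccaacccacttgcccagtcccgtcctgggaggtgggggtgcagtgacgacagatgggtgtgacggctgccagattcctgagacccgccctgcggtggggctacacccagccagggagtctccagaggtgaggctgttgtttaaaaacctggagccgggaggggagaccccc
PHGDH: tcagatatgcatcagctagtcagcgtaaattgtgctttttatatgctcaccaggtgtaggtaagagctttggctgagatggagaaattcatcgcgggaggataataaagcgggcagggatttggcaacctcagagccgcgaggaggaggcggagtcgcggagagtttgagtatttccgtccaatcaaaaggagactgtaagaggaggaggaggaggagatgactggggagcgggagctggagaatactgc
Windows of 300 bases (250 before and 50 after the start) were searched on both strands for TGANTCA, the core bound by AP-1 factors, and for TGATGNAAN, the composite element bound by ATF4 with C/EBP partners. The AP-1 letters read the same on both strands and were counted once per position, and no stretch of bases can match both motifs in full. Among 10960 tested protein-coding genes with a window, 4.57% held the AP-1 letters and 1.66% held the composite element. DDIT3 had 1 AP-1 match, starting 241 bases before the start, and LAMA3 had 2, at 125 and 69 bases before it. PPP1R15A, LAMB3 and PHGDH had no match to either motif, nor did KRT20, whose window was also searched, and none of these windows held the composite element. The negative genes searched thus included some with and some without the AP-1 letters. The starts used for all of these genes but KRT20 lie inside the gene spans of the deposited table, and other starts were not searched. A match says only that the letters are present. Bases farther from the start were not searched, so a window without a match says nothing about them.

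Several well-known stress genes did not pass the test for an unequal response, among them ATF3, CHAC1, GDF15, SESN2, TRIB3 and DDIT4. ATF3, an early stress-induced repressor, rose from 1.83, 1.84 and 1.94 CPM to 8.53 and 8.04 CPM in scramble cells and from 2.32, 1.52 and 1.5 CPM to 7.85 and 8.47 CPM in shATF4 cells. Its treated and its untreated levels overlapped between the lines, with a contrast of 0.04 ± 0.31. CHAC1, which degrades glutathione, rose in both lines (1.49 and 1.35), as did GDF15, a secreted stress cytokine (2.24 and 2.18), and SESN2, an inhibitor of mTORC1 (1.45 and 1.80). TRIB3, a pseudokinase that feeds back on ATF4, was at 88.5, 91.4 and 89.1 CPM untreated and 87.8 and 90.9 CPM at 48 h in scramble cells, and its contrast was -0.27 ± 0.13. DDIT4, another inhibitor of mTORC1, had a contrast of 0.64 ± 0.29 and was 1.26 lower in untreated shATF4 than in untreated scramble cells, which passed the test. Of the 17 tested genes on the list of stress response regulators, 2 were negative, DDIT3 and PPP1R15A (11.8% called, against 2.74% of all genes). None was positive, and the list median was -0.13. In level, 2 of the 17 were called lower in shATF4 than in scramble cells untreated and 6 at 48 h, and none higher. Over all 17309 genes, 319 and 958 were called lower. Among 14 genes of the eIF2 kinases and their machinery, 1 was called (7.14%, against 2.74% of all genes), and the median was 0.09. That count is no result about the list. EIF2AK3, the kinase PERK, had a contrast of -0.05. DELE1, which relays mitochondrial stress to the kinase HRI, was the gene called in that list: it fell by 1.02 in scramble cells and by 0.45 in shATF4 cells, a contrast of 0.57 ± 0.12 (edgeR adjusted p = 0.00904), and lost its call without scramble 48 h replicate 2 or shATF4 48 h replicate 2 (adjusted p up to 0.0706).

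**Figure D2:**
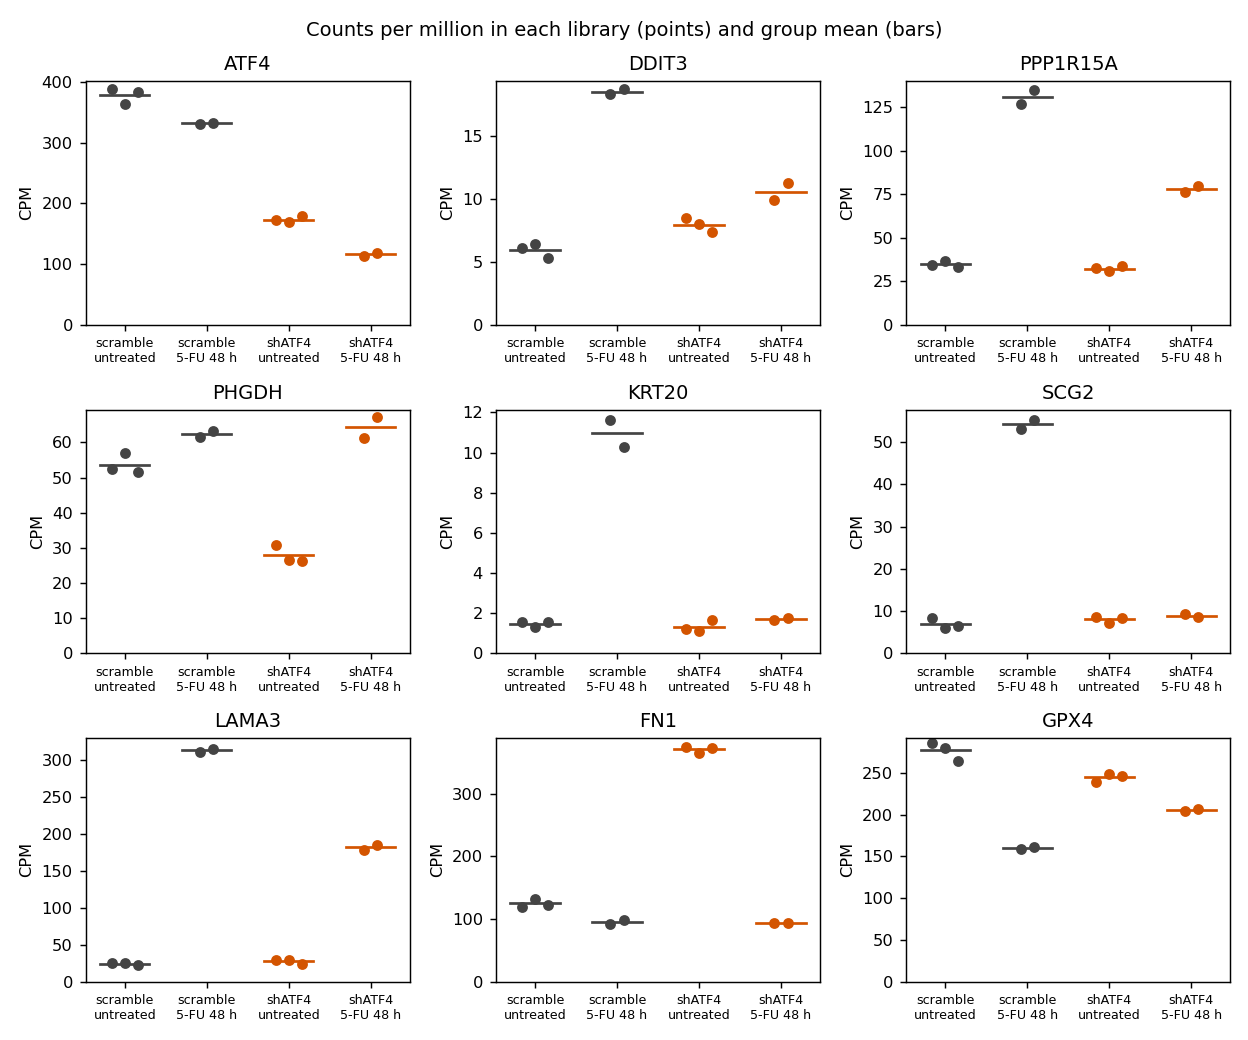
Level of 9 genes in each of the 10 libraries (points) with the group mean (bars), in CPM on linear axes from 0, scramble in grey and shATF4 in orange. DDIT3, PPP1R15A, KRT20, SCG2 and LAMA3 are highest in treated scramble cells, PHGDH is lowest and FN1 highest in untreated shATF4 cells, and GPX4 is lowest in treated scramble cells.

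PHGDH, SHMT2 and SHMT1, enzymes of serine and one-carbon metabolism, had positive contrasts. PHGDH, the first enzyme of serine synthesis, was at 52.5, 56.9 and 51.4 CPM in untreated scramble cells and at 61.7 and 63.2 CPM at 48 h. In shATF4 cells it was at 30.9, 26.6 and 26.3 CPM untreated and at 61.3 and 67.3 CPM at 48 h. The untreated knockdown cells were low, and the treated groups overlapped. The rise was 1.16-fold in scramble and 2.30-fold in shATF4, a contrast of 0.98 ± 0.13 (edgeR adjusted p = 0.000338). It reflects a gap of 1.92-fold between the untreated lines, which at 48 h was 0.04 in log2 units and not called. SHMT2, the mitochondrial serine hydroxymethyltransferase, fell from between 504 and 528 CPM to 173 and 163 CPM in scramble cells and from between 474 and 485 CPM to 202 and 224 CPM in shATF4 cells. Its contrast was 0.44 ± 0.10 (edgeR adjusted p = 0.015). SHMT1, the cytosolic form, had a contrast of 0.47 ± 0.11 (edgeR adjusted p = 0.0202). The SHMT2 call was lost without replicate 2 of either 48 h group (adjusted p up to 0.112), and the SHMT1 call without 6 of the 10 libraries (scramble untreated replicate 1, either scramble 48 h replicate, shATF4 untreated replicates 1 and 2, and shATF4 48 h replicate 2; up to 0.105). Of 12 enzymes on this list, these 3 were called, all positive (25%, against 2.74% of all genes). The other 9 did not pass, 4 of the 12 values were below 0, and the median was 0.08. PSAT1, the next enzyme of the serine pathway, fell in both lines (by 0.97 and by 0.71) and its contrast, 0.26 ± 0.13, did not pass.

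Of the lists of amino acid supply beyond serine counted here, only that of transporters held a call. ASNS, asparagine synthetase, a textbook ATF4 target, had a low count throughout, between 0.67 and 1.31 CPM in the 10 libraries, with a contrast of -0.06 ± 0.56. It overlaps AC079781.5, and the strand setting of the counting is not given. Its count is therefore uncertain, and the low value need not be its true level. None of the 13 aminoacyl-tRNA synthetases known as ATF4 targets was called, nor any of the 10 enzymes of asparagine, proline and transsulfuration metabolism. Among 13 amino acid transporters 1 was called (7.69%, against 2.74% of all genes), and these counts are no result about the lists. It was SLC6A9, the glycine transporter, at 7.42 and 8.87 CPM in treated scramble and 5.05 and 4.10 CPM in treated shATF4 cells. Its contrast was -1.06 ± 0.24 (edgeR adjusted p = 0.0213). That call was lost without scramble untreated replicate 1, scramble 48 h replicate 2, shATF4 untreated replicate 3 or shATF4 48 h replicate 2 (adjusted p up to 0.149). OAT, the ornithine aminotransferase that links arginine and proline metabolism, was picked after its values were seen: it went from 198, 182 and 201 CPM to 132 and 135 CPM in scramble cells and from 160, 154 and 160 CPM to 172 and 166 CPM in shATF4 cells, a contrast of 0.63 ± 0.10 (edgeR adjusted p = 0.0011).

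The keratins KRT20, KRT80 and KRT7 had negative contrasts. Keratins are the intermediate filament proteins of epithelia. KRT20, the keratin of differentiated intestinal epithelium, went from 1.54, 1.33 and 1.54 CPM to 11.6 and 10.3 CPM in scramble cells, while shATF4 cells had 1.23, 1.11 and 1.65 CPM untreated and 1.65 and 1.75 CPM at 48 h. The gene was induced 7.43-fold in scramble cells and its change in shATF4 cells, 0.36 in log2 units, was not called. The contrast was -2.54 ± 0.33 (edgeR adjusted p = 0.000264). KRT80, a keratin of differentiating epithelia and much more strongly counted, went from 142, 155 and 138 CPM to 352 and 343 CPM in scramble cells, and from 140, 151 and 148 CPM to 161 and 167 CPM in shATF4 cells. Its untreated levels overlapped and its treated levels lay far apart, with a contrast of -1.09 ± 0.11 (edgeR adjusted p = 6.64e-06). KRT7, a keratin of simple glandular epithelia, rose by 0.79 in scramble cells and fell by 0.45 in shATF4 cells, a contrast of -1.24 ± 0.19 (edgeR adjusted p = 0.00088).

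All keratins were then counted, a family chosen after values were seen. Of 22 tested, 8 had a called negative contrast and none a positive one, against 2.74% called among all genes. The median contrast was -0.74, and 21 of 22 values were below 0, against 8380 of all 17309 genes. KRT81, a hair-type keratin, had the strongest statistic: 8.20, 9.57 and 8.37 CPM untreated and 125 and 130 CPM at 48 h in scramble cells, 7.04, 10.6 and 8.37 CPM untreated and 24.8 and 30 CPM at 48 h in shATF4 cells, with a contrast of -2.21 ± 0.18 (edgeR adjusted p = 5.82e-07). KRT81 overlaps KRT86, and KRT7 overlaps KRT86 too, and several hair keratins are close in sequence, so the split of reads among these genes is uncertain. The calls of KRT5 (-1.64 ± 0.42, edgeR adjusted p = 0.0379) and KRT19 (-0.40 ± 0.11, edgeR adjusted p = 0.0469) were near the threshold. Each lost its call in 9 of the 10 fits that left out 1 library, KRT5 in all but that without scramble untreated replicate 2 (adjusted p up to 0.128) and KRT19 in all but that without shATF4 untreated replicate 1 (up to 0.212). The main keratins of this line did not pass: KRT8, with a mean of 5448 CPM, had a contrast of -0.02 ± 0.11, and KRT18 had -0.21 ± 0.08.

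**Figure D3:**
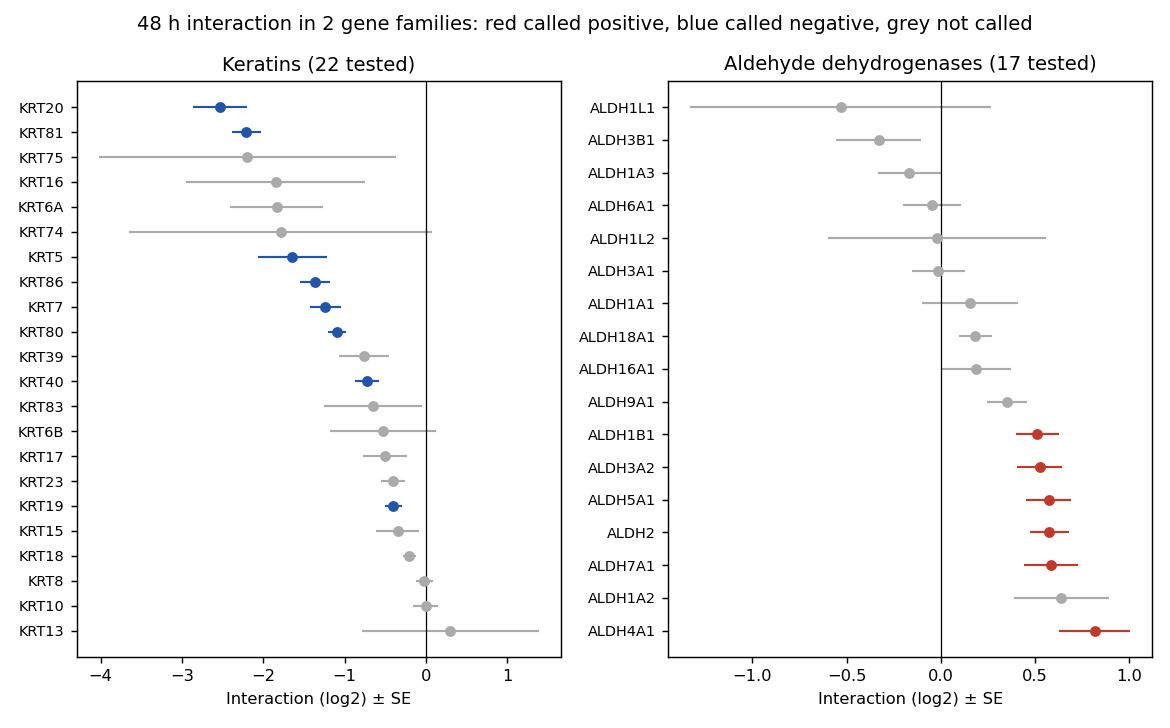
Contrast with its standard error, in log2 units, for every tested keratin and aldehyde dehydrogenase, families picked after values were seen. The 8 called negative contrasts (blue) are all keratins, and the 6 called positive contrasts (red) are all aldehyde dehydrogenases.

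The kallikrein-related peptidase KLK10 and the mucin MUC5AC lay on the same side. On the list of stress keratins and kallikreins 4 of 14 tested genes were called, all negative (28.6%, against 2.74% of all genes), and the median was -1.17. Of these 4, KRT80, KRT7 and KRT5 are keratins counted above. KLK10 was the only one of the 5 kallikreins on the list to pass, since KLK5, KLK6, KLK7 and KLK11 did not. KLK3, a kallikrein that the list does not hold, was also called and is described below. KLK10 was induced from 0.586, 0.444 and 0.536 CPM to 45 and 47 CPM in scramble cells and from 0.546, 1.11 and 0.644 CPM to 17.4 and 19.5 CPM in shATF4 cells. Its contrast was -1.87 ± 0.43 (edgeR adjusted p = 0.0214), lost without scramble untreated replicate 2, either scramble 48 h library, shATF4 untreated replicate 2 or shATF4 48 h replicate 1 (adjusted p up to 0.137). MUC5AC, a gel-forming mucin, rose in both lines (3.09 and 1.26) with a contrast of -1.83 ± 0.36 (edgeR adjusted p = 0.00763), and missed the threshold without scramble 48 h replicate 2 (adjusted p = 0.0521).

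On the list of colon differentiation genes, 4 of 16 were negative and 2 positive (37.5% called, against 2.74% of all genes), so the list did not move as a unit. Besides KRT20, the adhesion protein CEACAM6 went from 2.71, 2.92 and 4.02 CPM to 13.9 and 15 CPM in scramble cells and from 4.99, 5.46 and 4.87 CPM to 7.03 and 9.40 CPM in shATF4 cells, a contrast of -1.48 ± 0.25 (edgeR adjusted p = 0.00216). Related CEACAM genes are close in sequence, so its count is uncertain. CDX2, the master transcription factor of intestinal identity, went the other way: 15.4, 12.2 and 11.1 CPM to 17.9 and 17.9 CPM in scramble cells, and 14.6, 15.2 and 12.9 CPM to 34.8 and 35.6 CPM in shATF4 cells. Its contrast was 0.83 ± 0.20 (edgeR adjusted p = 0.0223), and that of VIL1, villin, the actin bundler of the brush border, was 0.44 ± 0.09 (edgeR adjusted p = 0.0144). Both calls were lost without either scramble 48 h library or shATF4 48 h replicate 2, and that of CDX2 also without scramble untreated replicate 1, shATF4 untreated replicate 3 or shATF4 48 h replicate 1 (adjusted p up to 0.105 for CDX2 and 0.0872 for VIL1). LGR5, a marker of intestinal stem cells, and the other 16 genes of the Wnt and stem cell list gave no call. LGR5 passed without scramble untreated replicate 2 (0.46, edgeR adjusted p = 0.0426) and without both libraries that stood apart (0.46, edgeR adjusted p = 0.00903).

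Adhesion and matrix genes with a negative contrast included LAMA3 and LAMB3, which encode chains of laminin-332. Laminin-332 is the basement membrane laminin by which epithelial cells attach through hemidesmosomes. LAMA3, its alpha chain, rose from 25.7, 25.1 and 22.4 CPM to 311 and 316 CPM in scramble cells and from 29, 29.8 and 24.6 CPM to 179 and 186 CPM in shATF4 cells. LAMB3, its beta chain, rose from 115, 128 and 114 CPM to 288 and 291 CPM, against 123, 132 and 129 CPM to 176 and 203 CPM. For both chains, treated scramble libraries were above treated shATF4 libraries without overlap, and the contrasts were -0.97 ± 0.12 for LAMA3 and -0.72 ± 0.11 for LAMB3, with edgeR adjusted p-values of 0.00011 and 0.00126. LAMB1, a chain of other laminins, was positive (0.64 ± 0.10, edgeR adjusted p = 0.00147). These laminin genes were picked after their values were seen.

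FN1, fibronectin, showed a different route to a negative contrast. It stood at 120, 132 and 123 CPM in untreated scramble cells and at 92.0 and 99.2 CPM at 48 h, but at 374, 365 and 373 CPM in untreated shATF4 cells and at 93.5 and 93.6 CPM at 48 h. Untreated shATF4 cells thus held 2.97 times the scramble level and the treated lines overlapped. It fell 1.31-fold in scramble and 3.96-fold in shATF4, a contrast of -1.60 ± 0.12 (edgeR adjusted p = 4.82e-07). TNC, tenascin-C, another matrix glycoprotein, fell 5.53-fold in scramble cells and 9.19-fold in shATF4 cells, with a contrast of -0.73 ± 0.10 (edgeR adjusted p = 0.000551), and overlaps DEC1. CDH1, E-cadherin, the adherens junction protein of epithelia, was at 187, 188 and 194 CPM untreated and 370 and 379 CPM at 48 h in scramble cells, and at 200, 193 and 198 CPM untreated and 243 and 238 CPM at 48 h in shATF4 cells. Its contrast was -0.69 ± 0.10 (edgeR adjusted p = 0.000573). On the mesenchymal, matrix and invasion list 5 of 10 tested genes were negative (50%, against 1.44% of all genes), FN1, TNC and CDH1 among them, none was positive and the median was -0.61. CDH1 is an epithelial gene that such lists hold as the opposite marker, and it moved to the same side as the matrix genes.

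By the size of the contrast, the 12 largest negative values among called protein-coding genes averaging 1 CPM or more included the keratin KRT20, described above, and genes of secretory granules, proteases and steroid synthesis. SCG2, secretogranin II, a protein of hormone-storing granules, went from 8.42, 5.90 and 6.56 CPM to 53.2 and 55.2 CPM in scramble cells. In shATF4 cells it stayed between 7.26 and 9.22 CPM in all 5 libraries, with the treated libraries (9.22 and 8.58 CPM) just above the untreated ones. It rose 7.82-fold in scramble cells and was not called in shATF4 cells, a contrast of -2.82 ± 0.23 (edgeR adjusted p = 5.82e-07). PRSS36, a serine protease, showed the same shape, from 2.42, 3.36 and 1.81 CPM to 19.7 and 19.4 CPM in scramble and from 2.94, 4.15 and 4.08 CPM to 3.57 and 5.19 CPM in shATF4 cells, with a contrast of -2.70 ± 0.29 (edgeR adjusted p = 3.41e-05). F13A1, the A subunit of coagulation factor XIII, was already 5.38 times higher in untreated shATF4 cells (3.48, 3.73 and 3.79 CPM against 0.439, 0.698 and 0.871 CPM) and reached 6.42 and 7.46 CPM in scramble and 4.06 and 5.36 CPM in shATF4 cells. Its contrast was -2.99 ± 0.35 (edgeR adjusted p = 7.7e-05).

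KLK3, a kallikrein peptidase (-2.64 ± 0.46, edgeR adjusted p = 0.00289), and ALPP, placental alkaline phosphatase (-2.47 ± 0.29, edgeR adjusted p = 7.7e-05), kept their calls in all 18 fits as well. ALPP has near-identical copies, so its count is uncertain. RASGRP3, an activator of Ras proteins, had no count in the 3 untreated scramble libraries. Its 121 counts over both treated scramble libraries were at least 52.4-fold higher, taking 3 counts over the untreated group as the floor, and the fitted contrast of -6.47 is no bound. Its level at 48 h was 3.10 and 3.99 CPM in scramble and 1.32 and 1.86 CPM in shATF4 cells. RASGRP3 lost its call without scramble 48 h replicate 2 or shATF4 untreated replicate 3 (adjusted p up to 0.0671). CYP11A1, the cholesterol side-chain cleavage enzyme of steroid synthesis (-3.33 ± 0.76), SCEL, sciellin of the cornified envelope (-3.23 ± 0.80), AC004233.2 (-3.14 ± 0.76), JPH2, a junctophilin (-2.64 ± 0.56), and CACNA1E, a calcium channel subunit (-2.55 ± 0.56), had untreated levels near 1 CPM or below in both lines. These 5 were called with edgeR adjusted p-values between 0.0126 and 0.0304. All 5 lost their calls without scramble 48 h replicate 2. JPH2 and CACNA1E also lost theirs without shATF4 untreated replicate 1, and CACNA1E without either shATF4 48 h library (adjusted p up to 0.0569 and 0.109). CYP11A1, SCEL and AC004233.2 also lost theirs without scramble 48 h replicate 1 or scramble untreated replicate 1. To these fits CYP11A1 added those without shATF4 untreated replicates 1 and 2 (up to 0.123), AC004233.2 those without scramble untreated replicate 3, shATF4 untreated replicate 2 and shATF4 48 h replicate 1 (up to 0.113), and SCEL those without scramble untreated replicate 3, shATF4 untreated replicate 1 and either shATF4 48 h library (up to 0.569).

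A further set was picked after its values were seen, because it holds secreted factors and receptors. NGFR, the p75 neurotrophin receptor, rose from 12, 13.2 and 8.37 CPM to 115 and 117 CPM in scramble cells and from 12.4, 13.1 and 14.3 CPM to 45.8 and 54.0 CPM in shATF4 cells, a contrast of -1.46 ± 0.20 (edgeR adjusted p = 0.000375). AREG, amphiregulin, a ligand of the EGF receptor, rose 25.2-fold in scramble and 9.57-fold in shATF4 cells, and DKK1, a secreted Wnt inhibitor, rose by 3.78 and 2.40 in log2 units, with contrasts of -1.40 ± 0.24 and -1.37 ± 0.24. For AREG and DKK1 the untreated shATF4 libraries were all above the untreated scramble libraries, and the lines were not called different at 48 h. EHF, an epithelial ETS transcription factor, was at 86.8, 79.0 and 98.9 CPM untreated and 102 and 99.8 CPM at 48 h in scramble cells, and fell from 133, 121 and 112 CPM to 68.8 and 60.3 CPM in shATF4 cells. Its contrast was -1.12 ± 0.13 (edgeR adjusted p = 7.7e-05). Opposite movements were rare: of the 8474 genes called in both lines, 39 moved in opposite directions. TMEM176A, which encodes a transmembrane protein, was among them, with a rise of 0.61 in scramble and a fall of 0.42 in shATF4 cells, a contrast of -1.03 ± 0.11 (edgeR adjusted p = 3.41e-05). It overlaps TMEM176B.

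The positive side held smaller values. Of its 12 largest called protein-coding genes, 3 kept their call in all 18 fits. OR2I1P, an olfactory receptor gene that overlaps GABBR1, rose from 3.07, 2.47 and 2.61 CPM to 7.94 and 7.16 CPM in scramble cells and from 3.21, 3.18 and 2.79 CPM to 26.4 and 24.4 CPM in shATF4 cells, a contrast of 1.57 ± 0.23 (edgeR adjusted p = 0.000636). SELENOM, a selenoprotein of the endoplasmic reticulum, rose from 1.61, 1.65 and 2.28 CPM to 6.07 and 5.40 CPM in scramble and from 1.37, 0.830 and 0.859 CPM to 9.71 and 11.2 CPM in shATF4 cells, a contrast of 1.72 ± 0.34 (edgeR adjusted p = 0.00728). CAPN6, a calpain without protease activity, fell in scramble cells (by 0.52) and rose in shATF4 cells (0.91), a contrast of 1.43 ± 0.27 (edgeR adjusted p = 0.00549). The other 9 lost their calls in between 2 and 12 of the 18 fits. BOLA2B, with the largest value (5.61 ± 1.51, edgeR adjusted p = 0.0487), rested on 1 library: it stood at 27.2 CPM in shATF4 48 h replicate 1 and at 0.328 CPM in replicate 2. Without replicate 1 it lost its call, and its near-identical copy BOLA2 makes its count uncertain.

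GPX4, NQO1 and GPX2, enzymes of redox defence, had small positive contrasts. GPX4, the glutathione peroxidase that removes lipid peroxides, fell from 285, 280 and 264 CPM to 158 and 161 CPM in scramble cells and from 239, 249 and 247 CPM to 204 and 206 CPM in shATF4 cells. Treated shATF4 libraries lay above treated scramble libraries, and the contrast was 0.54 ± 0.10 (edgeR adjusted p = 0.0039). Of 14 glutathione and NRF2 target genes, 4 were positive, GPX4, NQO1 and GPX2 among them, and none negative (28.6% called, against 2.74% of all genes). The other 10 did not pass, and the median was 0.20. The calls of NQO1 (edgeR adjusted p = 0.018) and GPX2 (edgeR adjusted p = 0.0221) were each lost in 5 of the fits that left out 1 library. For both genes these were the fits without either scramble 48 h library and without shATF4 48 h replicate 2, for NQO1 also those without shATF4 untreated replicate 3 or shATF4 48 h replicate 1, and for GPX2 those without scramble untreated replicate 1 or shATF4 untreated replicate 2 (adjusted p up to 0.0993 for NQO1 and 0.137 for GPX2). SLC7A11, the cystine transporter and an ATF4 target, had a contrast of -0.84 ± 0.24 (edgeR adjusted p = 0.061).

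Aldehyde dehydrogenases, a family counted after values were seen, oxidise aldehydes to acids in mitochondria and cytosol. Of 17 tested, 6 were positive and none negative (35.3% called, against 2.74% of all genes), with medians of -0.19 for the scramble response, 0.19 for the shATF4 response and 0.19 for the contrast. ALDH2, the mitochondrial enzyme that clears acetaldehyde, fell from 144, 133 and 141 CPM to 61.4 and 61.2 CPM in scramble cells and from 122, 120 and 128 CPM to 79.1 and 81.9 CPM in shATF4 cells, a contrast of 0.57 ± 0.10 (edgeR adjusted p = 0.0039). The other 5 (ALDH5A1, ALDH1B1, ALDH3A2, ALDH4A1 and ALDH7A1) had contrasts between 0.51 and 0.82 and lost their calls without either scramble 48 h library, without shATF4 48 h replicate 2 and, for some, without further libraries (adjusted p up to 0.158).

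Ribosomal protein genes fell in both lines, and RPL3 fell less in shATF4 cells. Of 50 on the list, 50 fell in scramble cells and 49 in shATF4 cells, with median responses of -1.31 and -1.15. Over all 17309 tested genes, 5200 were called as falling in scramble and 4973 in shATF4 cells. The contrast was positive for 46 of the 50 (8929 of all 17309 genes), with a median of 0.22. It passed the test for 2 (4%, against 2.74% of all genes). RPL3 went from 1925, 1884 and 1894 CPM to 421.8 and 407.5 CPM in scramble cells and from 1765, 1717 and 1804 CPM to 601.7 and 602.8 CPM in shATF4 cells, a contrast of 0.65 ± 0.08 (edgeR adjusted p = 0.000261). RPL10A (0.66 ± 0.15, edgeR adjusted p = 0.0189) lost its call without scramble untreated replicate 1, either scramble 48 h library or shATF4 48 h replicate 1 (adjusted p up to 0.105).

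Lists of death genes held 1 call each among 14 BCL2 family genes (7.14%) and 17 TNF receptor and death receptor genes (5.88%), against 2.74% of all genes, which is no result about the lists. BCL2L1, which encodes the survival protein BCL-XL, rose from 201, 209 and 201 CPM to 408 and 406 CPM in scramble cells and from 210, 214 and 219 CPM to 288 and 315 CPM in shATF4 cells. Its contrast was -0.51 ± 0.09 (edgeR adjusted p = 0.00384). It overlaps ABALON. TNFRSF10D, a decoy receptor for the death ligand TRAIL, had a contrast of -0.71 ± 0.13 (edgeR adjusted p = 0.00499). It missed the threshold without scramble 48 h replicate 2 (adjusted p = 0.0552).

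**Figure D4:**
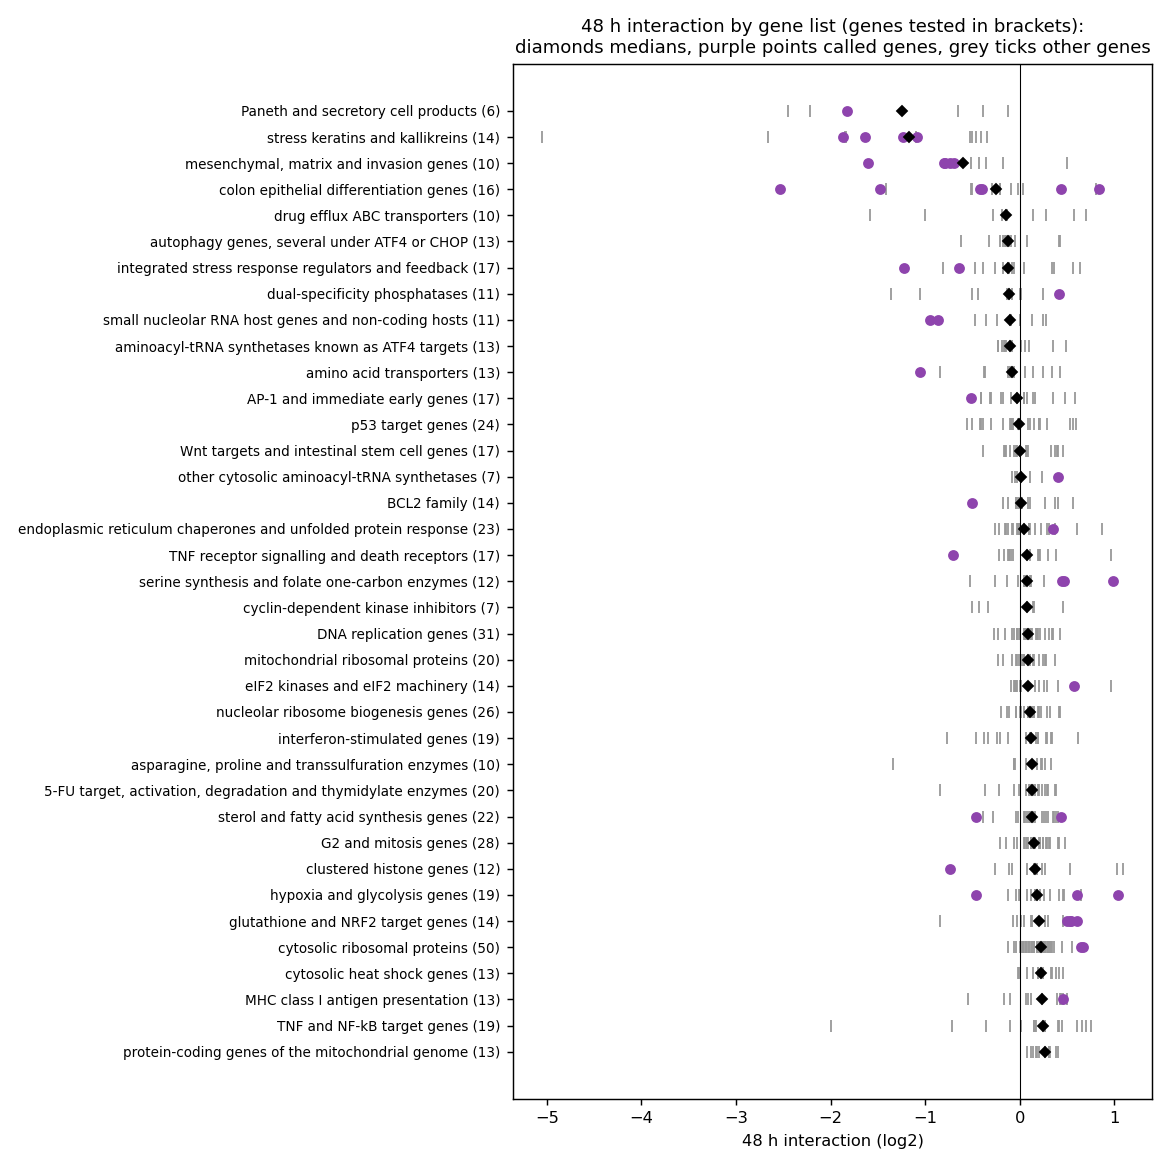
Contrast in log2 units for the tested members of 37 gene lists, sorted by median, with medians as diamonds, called genes as purple points and all others as grey ticks. The lists of epithelial and matrix products lie on the left. The medians of the p53 (-0.01) and DNA replication (0.08) lists lie close to 0. Those of the heat shock (0.22) and TNF and NF-kB (0.24) lists lie to the right.

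Several lists of drug-response genes gave no call for the contrast, against 2.74% called among all genes. Among 24 p53 target genes, 13 rose in each line and none had a called contrast (median -0.01). Over all 17309 tested genes, 5301 were called as rising in scramble and 5124 in shATF4 cells. CDKN1A, the p53-induced cell cycle inhibitor p21, rose from 2.27, 1.08 and 0.737 CPM to 49.8 and 50.5 CPM in scramble cells and from 2.05, 1.94 and 1.36 CPM to 47 and 47.8 CPM in shATF4 cells, and its contrast was -0.50 ± 0.33. Of 19 TNF and NF-kB target genes 18 rose in each line, with medians of 1.91 and 2.07 and no called contrast. Their median contrast was 0.24, with 15 of 19 values above 0, against 8929 of all 17309 genes. CXCL8, interleukin-8, rose by 2.92 in both lines with a contrast of 0.01 ± 0.24, and the chemokine CCL20 rose by 3.11 in scramble and 3.71 in shATF4 cells (contrast 0.60 ± 0.20, edgeR adjusted p = 0.126). The CCL20 contrast passed with no count filter, with the 10 libraries alone and without both libraries that stood apart (adjusted p between 0.0152 and 0.0284). TNF itself was near the floor in untreated cells (0 to 0.342 CPM) and at 1.11 and 0.822 CPM in treated scramble and 1.54 and 1.80 CPM in treated shATF4 cells. Its contrast, -0.36 ± 0.95, is too imprecise to separate the lines. No gene was called among 19 interferon-stimulated genes, 28 genes of G2 and mitosis, 31 of DNA replication, 13 heat shock genes or 20 genes of 5-FU targets and metabolism. With 2.74% of all genes called, an absence of calls in lists of these sizes is no result about the lists. TYMS, thymidylate synthase, fell by 0.33 in scramble and by 0.34 in shATF4 cells, with a contrast of -0.01 ± 0.12. DPYD, which degrades 5-FU, stayed at or below 1.10 CPM in all 10 libraries. Over all tested genes 2698 had an unadjusted p under 0.05. These counts were not compared with chance, and a missed threshold does not show that the lines responded alike.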

How the data were processed

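Poly(A)-selected RNA was sequenced. The authors' raw gene counts, deposited as whole numbers, were made with featureCounts 1.5.0-p3 against build GRCh38 or hg38, according to the submitters' processing notes. The aligner, annotation release and strand setting were not given in the sources used here. Those genes that passed edgeR's filterByExpr (17309, 99.9% of counts) were scaled by TMM. They were fitted over all 16 libraries in 6 groups with edgeR 4.0.16 (glmQLFit and glmQLFTest, 10 residual degrees of freedom, R 4.3.3), so that the groups of 2 share the spread. The contrast was (shATF4 48 h minus shATF4 untreated) minus (scramble 48 h minus scramble untreated), with Benjamini-Hochberg adjustment over all genes and calls at an adjusted p under 0.05. Standard errors are the log2 value divided by the root of F. CPM used the scaled library sizes. Coordinates are the table's.

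ATF4, 18 genes chosen by name, the 12 largest called protein-coding contrasts in each direction (mean of at least 1 CPM), and up to 4 called members of each list with the smallest p were named. Genes and families named otherwise were chosen after their values were seen. Some list members that the rule names are not reported here. Members and lists were chosen with earlier results of these data known. Alternatives were other scalings, filters, DESeq2 1.42.0, fewer libraries and a replicate block. Same-numbered libraries of different groups correlated between -0.0766 and 0.116 in their deviations (median 0.02, 13 pairs), so numbers were not treated as pairs. The fit was tested on simulated data.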

Additional observations from a re-analysis of the deposited data

Results flagged for a closer look

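The response to 48 h of 5-FU differed between the lines, by the test of the difference itself, for 475 genes (edgeR adjusted p under 0.05). Among genes chosen by name these were DDIT3 (log2 contrast -1.22), PPP1R15A (-0.65) and PHGDH (0.98). Among the largest positive contrasts they were BOLA2B (5.61), SEMA3C (1.88), CHODL (1.87), DUSP9 (1.74), SELENOM (1.72), TMEM159 (1.64), OR2I1P (1.57), CAPN6 (1.43), SYCE1L (1.43), PLCG2 (1.37), ARHGEF26 (1.31) and TSHZ1 (1.27). Among the largest negative ones they were RASGRP3 (-6.47), CYP11A1 (-3.33), SCEL (-3.23), AC004233.2 (-3.14), F13A1 (-2.99), SCG2 (-2.82), PRSS36 (-2.70), JPH2 (-2.64), KLK3 (-2.64), CACNA1E (-2.55), KRT20 (-2.54) and ALPP (-2.47). No group holds 4 or more libraries, so single libraries were not tested as outliers.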

How the results depend on the processing

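In 18 alternatives 1 choice was changed by name, though DESeq2 also brings its own scaling, spread, test and gene filter (14286 genes with an adjusted p), and fits with fewer libraries repeated the count filter (16950 to 18155 genes). No called gene that the text names reversed its sign, and 107 of the 475 calls held throughout. Of 35 uncalled genes followed in the same way, 16 passed in at least 1 alternative. Without both libraries that stood apart the contrast called 1204 genes (654 positive, 550 negative), the untreated lines 891 and the treated lines 3021. The 10 libraries of the contrast alone gave 386 negative calls, and DESeq2 gave 346 positive ones. With the replicate block, which the numbers do not warrant as a pairing, 669 genes were called, 338 of them positive. Leaving out 1 library gave 136 to 487 calls (38 to 251 positive, 98 to 237 negative), 277 to 474 between the untreated lines and 600 to 1814 between the treated lines. The cause was not tested. A 48 h arm left with 1 library is assumed to vary like the other groups. The smallest called contrast was 0.35 in size. Standard errors were wide for uncalled genes with few counts, 0.56 for ASNS and 0.95 for TNF.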
